A study of Mus musculus with 20 samples.

Results

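The genes described here are 32 enzymes and carriers of fatty acid oxidation in mitochondria and peroxisomes, picked by symbol out of 27465 genes listed in either of 2 deposited expression tables. They were chosen for their place in the pathway, not for their values. They comprise 4 genes of the carnitine shuttle, 8 acyl-CoA dehydrogenases, 6 enzymes of the later mitochondrial steps, 4 enzymes that handle unsaturated fatty acids, 3 electron transfer flavoprotein genes and 7 peroxisomal genes. Of the 32, 31 had values high enough to be tested in each table. The exception was Acaa1b, a peroxisomal thiolase whose normalized count lay between 0 and 3.85 in all 20 libraries.

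RNA came from the spleens of mice into which a mouse T-cell acute lymphoblastic leukemia (T-ALL) with a deletable Acly gene had been transplanted. Acly encodes ATP-citrate lyase, which makes cytosolic acetyl-CoA, the building block of fatty acids and sterols. Each mouse was irradiated below the lethal dose and received the conditional leukemia through a vein, so controls and knockouts carried the same conditional allele. The acute arm holds 6 control libraries (corn oil) and 4 knockout libraries (tamoxifen, 3 mg per mouse), from mice treated after overt leukemia had developed and sampled 72 h after treatment. The survival arm holds 5 control and 5 knockout libraries, from mice given the same agents 48 h after transplantation and sampled when they reached a humane endpoint. The labels do not name the driver of the recombinase, the deleted exons, or the strain, age and sex of the hosts. Tamoxifen went to the knockout groups alone, so the drug and the deletion cannot be told apart. Spleens were pressed through a filter and depleted of red cells without a named sort, so each library also holds RNA of the host's own spleen cells. In such a mixture, fewer cells of a type and less RNA per cell cannot be told apart. The labels do not state that each library is a separate mouse, and p-values measure the spread between libraries, which may be partly technical.

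As background, long-chain fatty acids are activated to acyl-CoA and cross the inner mitochondrial membrane as carnitine esters. In the matrix, repeated rounds of dehydrogenation, hydration, a second dehydrogenation and thiolysis shorten the chain and release acetyl-CoA, while the electrons pass through the electron transfer flavoprotein to the respiratory chain. Peroxisomes take in very-long-chain and branched acids through ABCD transporters and shorten them with enzymes of their own. Acetyl-CoA made in mitochondria reaches the cytosol as citrate, which ATP-citrate lyase cleaves.

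Promoter windows running from 250 bases before to 50 bases after the transcription start were found for 26 of the 32 genes (27 windows) in RefSeq, build GRCm38.p6, which is not the build the authors used. No window was matched for Decr1, Acat1, Abcd2, Acaa2, Acad9 or Hsd17b4. The nuclear receptor element AGGTCA, which PPAR and related receptors are known to bind, was searched on both strands. It lay in 5 of the 27 windows (Acadm, Cpt1c, Echs1, Acadvl and Cpt1a), beside 16.3% of all 32851 windows in the table. Its direct repeat AGGTCANAGGTCA lay in 0 of the 27 windows and in 0.0396% of all windows. The longer form TCAAGGTCA, known as an estrogen-related receptor element, lay in 0 windows of these genes and in 0.423% of all. Its core AAGGTCA, which contains the first element, lay in the Acadm window and in 4.72% of all. The cyclic AMP element TGACGTCA lay in 0 windows of these genes and in 1.79% of all. These are matches of letters, and an absent match says nothing about a factor. The 250 bases upstream of 3 genes are printed 5′ to 3′ on the gene's own strand. Cpt1a and Acadvl are shown because both fell in the acute arm and hold the element, and Hadhb because its upstream bases lie between 2 members. Capitals mark AGGTCA or its reverse complement TGACCT.
Cpt1a, chr19:3323051-3323300, plus strand: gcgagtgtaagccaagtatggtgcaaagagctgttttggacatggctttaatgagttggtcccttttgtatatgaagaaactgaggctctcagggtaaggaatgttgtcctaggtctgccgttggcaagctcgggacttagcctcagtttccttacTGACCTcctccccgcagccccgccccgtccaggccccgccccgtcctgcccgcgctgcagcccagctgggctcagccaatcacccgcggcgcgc
Acadvl, chr11:70015429-70015678, minus strand: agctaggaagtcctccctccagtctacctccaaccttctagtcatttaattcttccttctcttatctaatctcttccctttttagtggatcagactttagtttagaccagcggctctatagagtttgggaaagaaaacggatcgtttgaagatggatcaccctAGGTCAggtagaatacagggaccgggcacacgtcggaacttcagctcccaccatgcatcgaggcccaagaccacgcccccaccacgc
Hadhb, chr5:30155003-30155252, plus strand, without the element: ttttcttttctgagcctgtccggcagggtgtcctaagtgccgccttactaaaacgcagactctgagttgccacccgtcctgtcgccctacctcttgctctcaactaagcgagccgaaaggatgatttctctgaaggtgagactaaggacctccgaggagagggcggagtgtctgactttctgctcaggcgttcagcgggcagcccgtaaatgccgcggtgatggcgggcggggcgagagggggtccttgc
Hadha and Hadhb, the alpha and beta subunits of the mitochondrial trifunctional protein, start on opposite strands of chromosome 5 at bases 30154980 and 30155253. Only 272 bases lie between their starts, and their windows share 228 bases.

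Values are DESeq-normalized counts, in which the authors scaled the libraries of each table to one another. Group differences are log2 fold changes, knockout minus control, of log2(normalized count + 1), fitted with limma. The added 1 understates changes of genes with low values. A gene was tested where it reached 10 in as many libraries as the smaller group has, and it was called at a Benjamini-Hochberg adjusted p under 0.05 over all genes tested. Library totals were 19432235 to 20731983 in the acute table and 19998354 to 21623571 in the survival table. The number of sequenced reads behind them is unknown. As deposited, Acly itself, from 7406 to 8280 in the acute controls and 4823 to 6402 in the acute knockouts, fell by 0.46 (SE 0.0747, limma adjusted p = 0.000866). At the endpoint it fell by 1.38 (SE 0.131, limma adjusted p = 0.0016), from 7396 to 8825 in controls to 2174 to 4017 in knockouts. Its groups did not overlap in either arm.

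Marker genes of other spleen cells moved with the acute groups. Of the markers tested, 15 of 15 neutrophil, 17 of 17 monocyte and macrophage, 11 of 11 B-cell and 7 of 7 NK genes were higher in the acute knockouts, and 18 of 22 T-cell genes were lower. The summed neutrophil markers ran from 12895 to 53136 in the acute controls and from 190106 to 641058 in the acute knockouts. The summed T-cell markers ran from 306341 to 315843 and from 203485 to 271323. Among the other lists, 5 of 7 plasma-cell, 3 of 7 dendritic, 2 of 6 megakaryocyte, 1 of 8 stromal and 0 of 13 erythroid genes were higher. Defining T-cell markers were present in every library, and no marker with values in an arm was at 0 in all its libraries. Of the 11 stromal markers, 10 had values in the survival arm. In the survival arm limma called 0 of 111 markers tested. At an unadjusted p under 0.05 there were 21, beside 8.74% of all genes. The neutrophil sums overlapped in that arm (5518 to 29107 in controls, 2873 to 32643 in knockouts). A marker score, the mean log2 level of the non-T markers centred within each table, was -0.93 to -0.23 in the acute controls and 0.34, 1.49, 1.2 and 0.71 in acute knockouts 1 to 4. Knockouts 2 and 3 therefore stood furthest from the controls. The part of these markers in the acute results was not tested beyond the values given with them.

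In the acute arm, 17 of the 31 tested genes were called (limma, adjusted p under 0.05), beside 31.4% of all 16363 genes tested. At an unadjusted p under 0.05 there were 20 of the 31, beside 41.6% of all genes. As deposited, 13 were lower (14.7% of all genes) and 4 higher (16.7%). Scaling each library to the T-cell receptor genes Trbc1 and Trbc2 instead gave 13 called genes, each of them higher. Over all genes it called 7414 higher and 90 lower. That scaling adds 0.38 to every acute fold change, so 6 of the 13 falls stayed below 0 (0 at an unadjusted p under 0.05) and 7 turned above it, while the 4 rises stayed called. When the marker score was added to the model, the 13 falls stayed below 0 and 0 of the 17 were called. Of the 4 rises, 3 turned below 0 (Eci1, Acox3 and Acadl). The score did not overlap between the acute groups (-0.93 to -0.23 in controls, 0.34 to 1.49 in knockouts). That model therefore separates score and knockout poorly, and its signs and lost calls decide nothing about a cause. The lower genes included the carnitine shuttle gate Cpt1a, the long-chain dehydrogenase Acadvl, the thiolase Acaa2 and the dehydrogenase Hadh. The higher genes were the peroxisomal transporter Abcd2, the isomerase Eci1, the peroxisomal oxidase Acox3 and the dehydrogenase Acadl. The median log2 fold change of the 31 was -0.11, beside -0.023 over all genes tested. The groups did not overlap for 11 of the 31 (10 lower, 1 higher), beside 22.7% of all genes (9.94% lower, 12.7% higher).

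**Figure D1:**
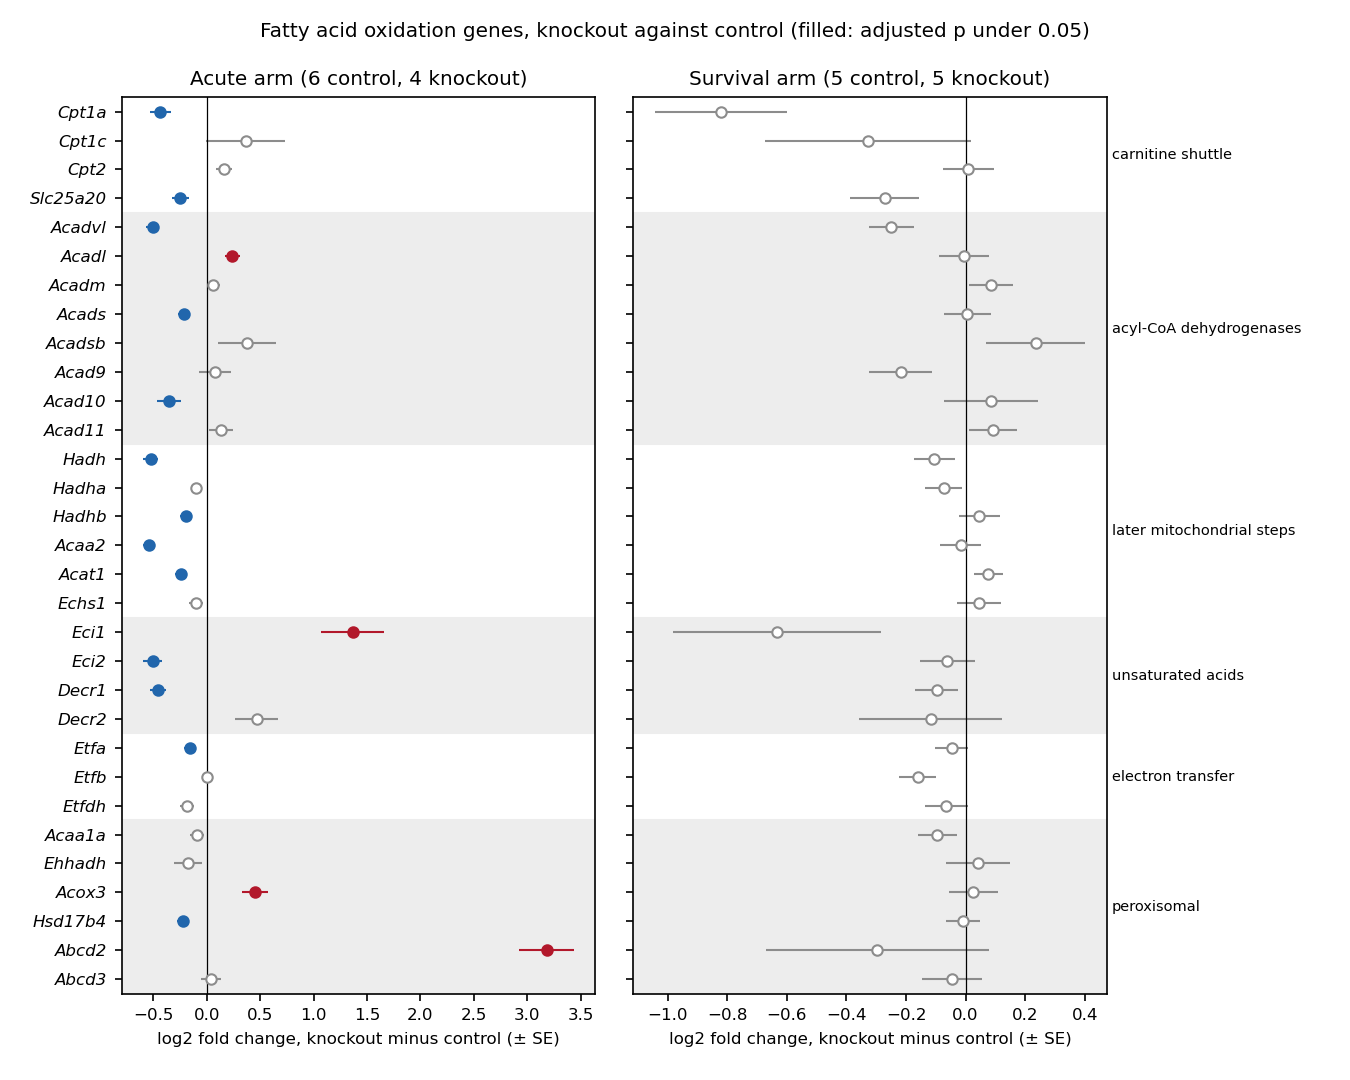
Log2 fold change (knockout minus control, ± SE from limma) of the 31 tested genes by role, in the acute arm (6 control and 4 knockout libraries) and the survival arm (5 and 5), with a separate scale for each arm. Filled points passed an adjusted p under 0.05, which 13 lower and 4 higher genes did in the acute arm as deposited (scaled to Trbc1 and Trbc2, 7 of the 13 turn above 0) and none did in the survival arm, where 4 passed an unadjusted p under 0.05.

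In the carnitine shuttle, 2 of 4 genes fell in the acute arm as deposited, and Slc25a20 turned above 0 when scaled to Trbc1 and Trbc2. Cpt1a encodes carnitine palmitoyltransferase 1A, the outer-membrane enzyme at which malonyl-CoA restrains entry of fatty acids. Its normalized counts in the controls had a low of 2725, a median of 3229 and a high of 4089, and the knockouts had 2152, 2318, 2694 and 2451. Every knockout lay below every control. Cpt1a fell by 0.43 (SE 0.102, limma adjusted p = 0.00735). Slc25a20, the carrier that exchanges acylcarnitine for carnitine across the inner membrane, had a low of 683, a median of 779 and a high of 843 in the controls and 554, 708, 685 and 677 in the knockouts. The groups overlapped, with knockout 1 lowest, and Slc25a20 fell by 0.25 (SE 0.0813, limma adjusted p = 0.0353). Its call ended without any of 7 libraries (controls 2 to 6, knockouts 1 and 3), with limma adjusted p from 0.0538 to 0.0913. Cpt2, which returns the acyl group to CoA in the matrix, had a low of 346, a median of 360 and a high of 381 in the controls and 427, 443, 395 and 363 in the knockouts. Knockouts 1 to 3 lay above all controls, but the difference of 0.16 (SE 0.0731) was not called (limma adjusted p = 0.12), except without knockout 4 (0.042). Cpt1c, the form known from brain, was near the detection limit at 11.3 ± 3.18 (SD, n = 6) in controls and 16.1 ± 8.57 (SD, n = 4) in knockouts.

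Among the acyl-CoA dehydrogenases, which carry out the first step of each round, 3 of 8 fell and 1 rose in the acute arm as deposited, and the falls of Acads and Acad10 turned above 0 in the Trbc scaling. Acadvl, the very-long-chain enzyme of the inner membrane, had a low of 1764, a median of 1896 and a high of 2123 in the controls and 1402, 1336, 1331 and 1378 in the knockouts. The 4 knockouts lay close together, below every control. It fell by 0.51 (SE 0.0587, limma adjusted p = 8.87e-05). Acads, the short-chain enzyme, fell by 0.21 (SE 0.0561, limma adjusted p = 0.014), without overlap between 820 to 914 in controls and 692 to 795 in knockouts. Acad10, a less studied family member, had a low of 144, a median of 160 and a high of 185 in the controls and 141, 127, 129 and 110 in the knockouts. The groups did not overlap, and Acad10 fell by 0.36 (SE 0.111, limma adjusted p = 0.0284). Its call ended without any of controls 3 and 5 and knockouts 2, 3 and 4, with limma adjusted p from 0.0565 to 0.0727. Acadl, the long-chain enzyme, rose by 0.24 (SE 0.0731, limma adjusted p = 0.0266), from 1451 to 1823 in controls to 1770 to 2155 in knockouts, but stood at -0.14 with the marker score in the model. That rise lost its call without any of controls 4 and 5 and knockouts 2 and 3 (limma adjusted p from 0.0525 to 0.0914). Acadm, the medium-chain enzyme best known from its human deficiency, had a low of 641, a median of 703 and a high of 713 in the controls and 667, 764, 687 and 775 in the knockouts. These groups overlapped, and the difference of 0.06 (SE 0.0619) was not called (limma adjusted p = 0.51). Acadsb (0.38), Acad9 (0.08) and Acad11 (0.13) were not called either. As deposited, the dehydrogenases thus did not share a direction: very-long-chain and short-chain enzymes were lower, the long-chain enzyme was higher and the medium-chain enzyme was not called. With the marker score in the model, Acadvl, Acads, Acadl and Acadm all stood below 0 and none was called.

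Of the later mitochondrial steps, 4 of 6 genes fell and 0 rose in the acute arm as deposited, and Hadhb and Acat1 turned above 0 in the Trbc scaling. Acaa2, the thiolase that releases acetyl-CoA from medium chains, had a low of 3093, a median of 3257 and a high of 3428 in the controls and 2466, 2072, 2144 and 2293 in the knockouts. Acaa2 fell by 0.54 (SE 0.0552, limma adjusted p = 4.71e-05), the largest fall among the members as deposited. Hadh, the 3-hydroxyacyl-CoA dehydrogenase for medium and short chains, had a low of 1646, a median of 1756 and a high of 1895 in the controls and 1412, 1112, 1159 and 1242 in the knockouts. It fell by 0.53 (SE 0.07, limma adjusted p = 0.000225). Acat1, which splits acetoacetyl-CoA, had a low of 2353, a median of 2629 and a high of 2732 in the controls and 2238, 2057, 2206 and 2250 in the knockouts. It fell by 0.25 (SE 0.0509, limma adjusted p = 0.00359). For each of these 3 enzymes every knockout lay below every control, with knockout 2 lowest.

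The trifunctional protein performs the last 3 steps on long chains, and the gene of its thiolase subunit, Hadhb, starts beside Hadha as printed above. Hadhb had a low of 2334, a median of 2605 and a high of 2832 in the controls and 2314, 2235, 2097 and 2350 in the knockouts. It fell by 0.19 (SE 0.0581, limma adjusted p = 0.0237), with knockout 4 inside the control range, and was not called without knockout 2 or knockout 3 (limma adjusted p 0.0556 to 0.0867). Hadha had a low of 1593, a median of 1677 and a high of 1712 in the controls and 1518, 1550, 1544 and 1593 in the knockouts. Its difference of -0.11 (SE 0.0409) was not called (limma adjusted p = 0.0702). The log2 ratio of Hadhb to Hadha was 0.45 to 0.73 in the acute controls and 0.44 to 0.61 in the acute knockouts, which overlapped. Echs1, the short-chain hydratase, differed by -0.10 (SE 0.0659) and was not called (limma adjusted p = 0.293).

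The enzymes for double bonds in unsaturated acids split in the acute arm. Eci1 and Eci2 are both enoyl-CoA isomerases, one mitochondrial and the other found in mitochondria and peroxisomes. Eci2 had a low of 1593, a median of 1768 and a high of 1843 in the controls and 1400, 1043, 1094 and 1439 in the knockouts. All knockouts lay below all controls, knockouts 2 and 3 lowest, and Eci2 fell by 0.51 (SE 0.0904, limma adjusted p = 0.00146). Eci1, at far lower values, had a low of 33, a median of 37 and a high of 74 in the controls and 84, 168, 147 and 74 in the knockouts. Only knockout 4 reached into the control range, and Eci1 rose by 1.36 (SE 0.293, limma adjusted p = 0.0044). With the marker score in the model it stood at -0.27. The log2 ratio of Eci1 to Eci2 was -5.70 to -4.54 in the controls and -4.26 to -2.63 in the knockouts. That ratio is not corrected for length, and only its shift between groups is read. Decr1, the mitochondrial 2,4-dienoyl-CoA reductase, had a low of 763, a median of 794 and a high of 890 in the controls and 654, 539, 541 and 641 in the knockouts. It fell by 0.46 (SE 0.0757, limma adjusted p = 0.000963) without overlap. Decr2, its peroxisomal counterpart, differed by 0.47 (SE 0.204) and was not called (limma adjusted p = 0.102) except without knockout 3 (0.0137).

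Of the 3 genes that pass electrons on, Etfa, the alpha subunit of the electron transfer flavoprotein, ranged from 2559 to 3069 in the controls and 2487 to 2676 in the knockouts. It fell by 0.16 (SE 0.0552, limma adjusted p = 0.0498), at the edge of the threshold, and turned to 0.22 in the Trbc scaling. The call ended without any of controls 2 to 6 or knockouts 1 to 3 (limma adjusted p from 0.0602 to 0.131). Etfb, the beta subunit, differed by 0.0045 (SE 0.0521) and was not called (limma adjusted p = 0.96). Etfdh, the membrane oxidoreductase that takes the electrons to ubiquinone, had a low of 1124, a median of 1243 and a high of 1420 in the controls and 1112, 1051, 1139 and 1142 in the knockouts. The groups overlapped, and the difference of -0.18 (SE 0.0684) was not called (limma adjusted p = 0.0597), except without control 1 (0.0252). The log2 ratio of Etfb to Etfa was -1.24 to -0.92 in the controls and -1.0 to -0.78 in the knockouts.

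Peroxisomal genes held the largest change in the acute arm. Abcd2, a transporter that brings very-long-chain acyl-CoA into peroxisomes, had a low of 32, a median of 36 and a high of 59 in the controls and 252, 634, 397 and 295 in the knockouts. Every knockout lay above every control, and Abcd2 rose by 3.18 (SE 0.254, limma adjusted p = 3.84e-05). Its close relative Abcd3 had a low of 464, a median of 557 and a high of 649 in the controls and 526, 557, 591 and 605 in the knockouts, a difference of 0.04 (SE 0.0915) that was not called (limma adjusted p = 0.783). Acox3, the oxidase for branched chains, had a low of 646, a median of 684 and a high of 756 in the controls and 716, 1220, 1052 and 851 in the knockouts. It rose by 0.45 (SE 0.124, limma adjusted p = 0.0167), with knockout 1 inside the control range, and was not called without knockout 3 (0.0593). With the marker score in the model it stood at -0.32. Hsd17b4, the D-bifunctional protein that follows the oxidase, fell by 0.22 (SE 0.0547, limma adjusted p = 0.00885) but stood at 0.15 in the Trbc scaling, from 1962 to 2272 in controls to 1668 to 1890 in knockouts. Acaa1a (-0.10) and Ehhadh (-0.18), a thiolase and the L-bifunctional protein, were not called. Acaa1a has the near-identical copy Acaa1b, and the authors' counting could split reads between them.

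**Figure D2:**
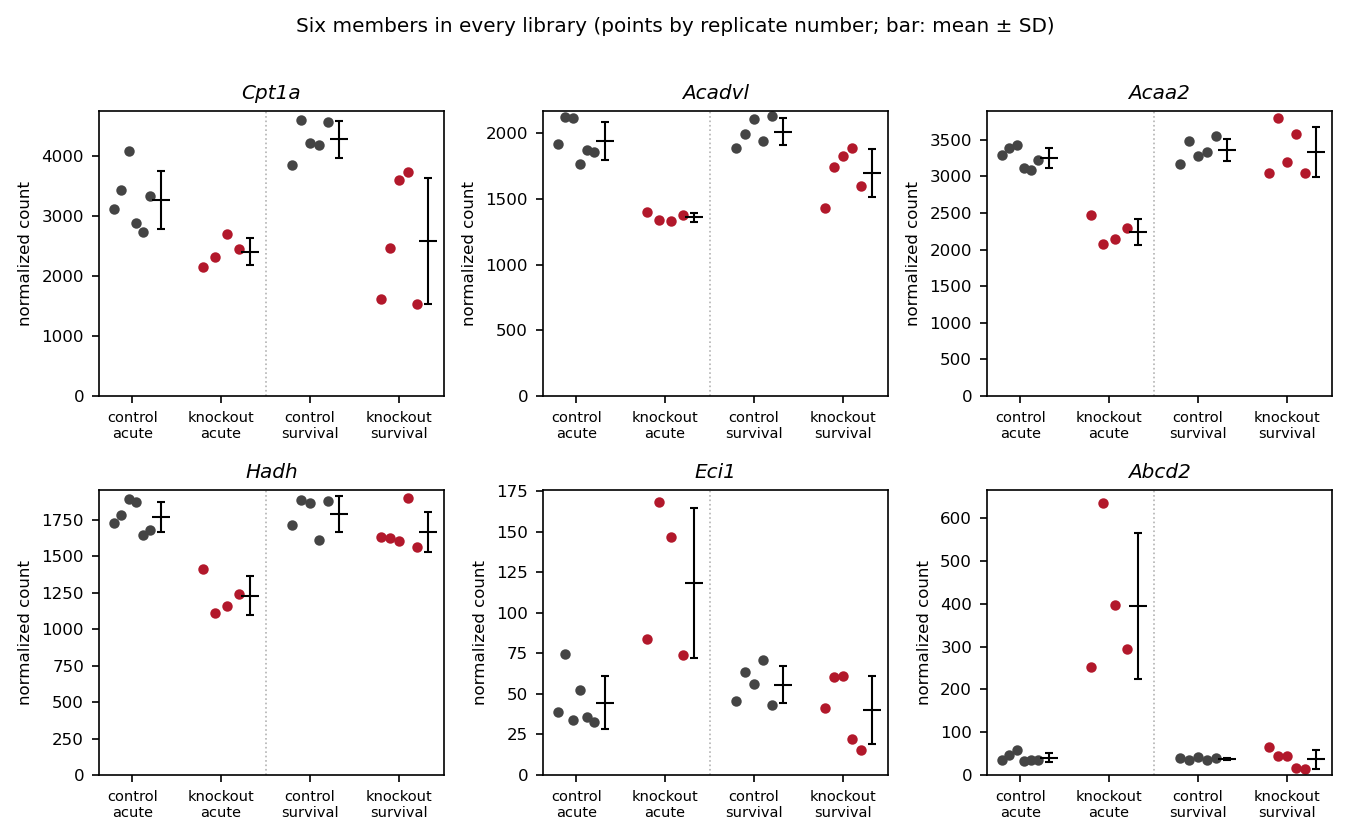
Normalized counts of 6 genes in every library (points, in order of replicate number from left to right within a group) with the mean ± SD beside them; tables were scaled separately, so levels are compared within an arm. All 4 acute knockouts lie below all acute controls for Cpt1a, Acadvl, Acaa2 and Hadh as deposited, Abcd2 is at 252 to 634 in the acute knockouts against 32 to 59 in their controls, and in the survival arm Cpt1a is at 1534 to 3728 in knockouts and 3849 to 4590 in controls.

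Several acute changes were largest in the knockouts with the highest marker scores, a description of few libraries made after the values were seen. Knockouts 2 and 3, with the highest scores, had the highest values of Abcd2, Acox3 and Eci1 and the lowest of Acaa2, Hadh, Eci2 and Decr1. Abcd2, Acox3, Acaa2, Hadh and Decr1 followed the score over all 4 knockouts, while Eci1 and Eci2 had knockouts 1 and 4 exchanged. Acadvl was also lowest in knockouts 2 and 3 but varied only between 1331 and 1402. Cpt1a was lowest in knockout 1, which had the lowest score. Without knockouts 2 and 3, 8 of the 13 falls and 1 of the 4 rises were still called in the same direction, beside 2079 of all 17248 genes. Those falls were Cpt1a, Slc25a20, Acadvl, Acads, Hadh, Acaa2, Eci2 and Decr1, and that rise was Abcd2 at 2.74 (limma adjusted p = 0.000133). With that score added to the model as a covariate, limma called 0 of the 31 genes and 0 of all genes tested, Acly included. Because the score did not overlap between the acute groups, that model could not separate it well from the knockout. In that model 6 of the 31 reached an unadjusted p under 0.05, beside 7.65% of all genes: Cpt1a (-0.73), Slc25a20 (-0.62), Acadvl (-0.53), Acads (-0.36) and Acaa2 (-0.34) lower and Abcd2 (1.71) higher. The median over the 31 genes was -0.17 in that model.

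**Figure D3:**
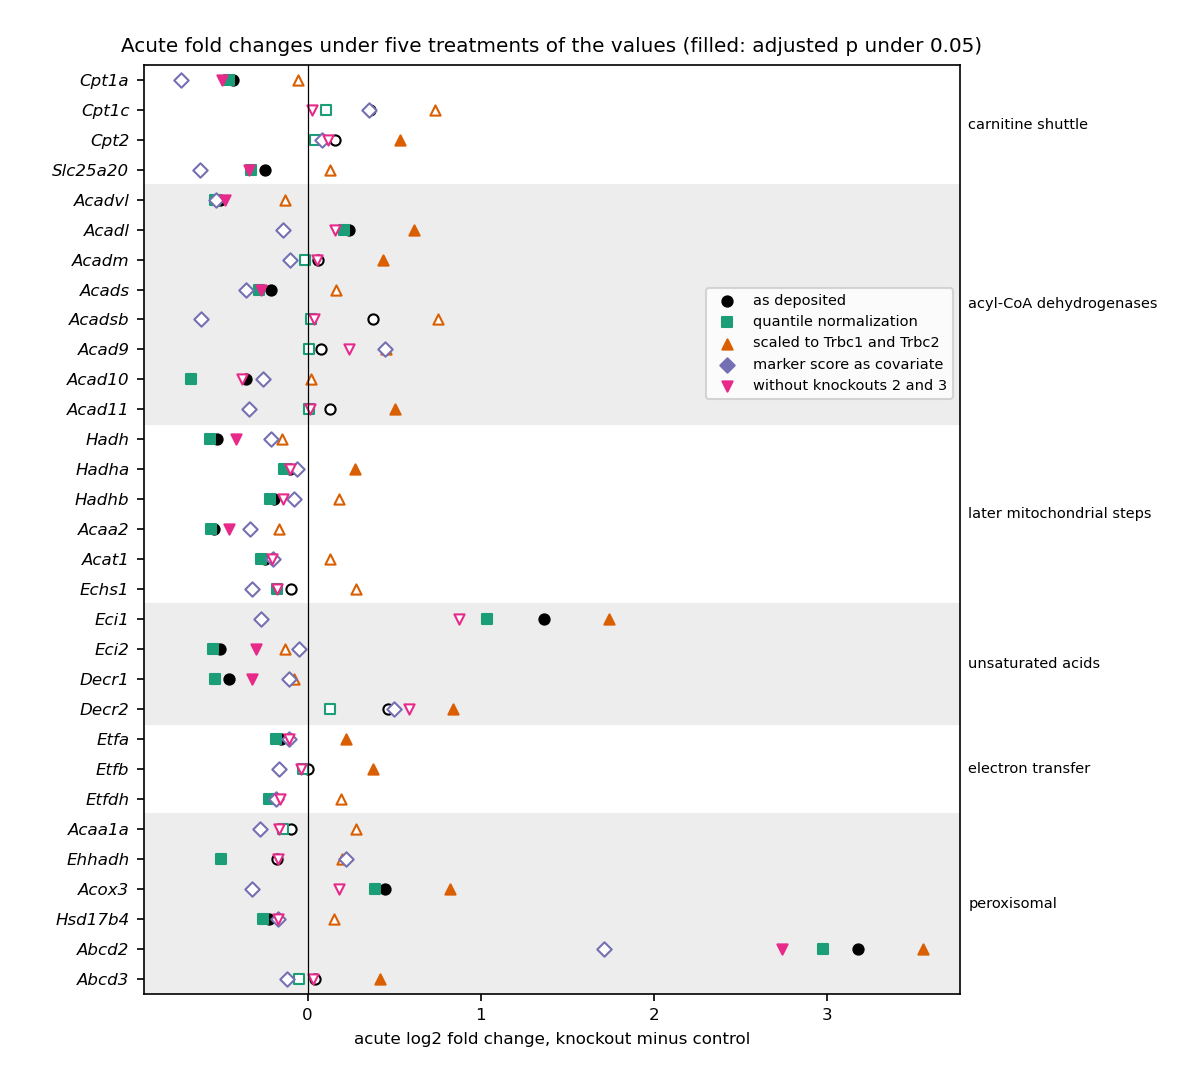
Acute log2 fold change (knockout minus control) of the 31 tested genes as deposited and under 4 other treatments of the values; filled symbols passed an adjusted p under 0.05. Scaling to Trbc1 and Trbc2 shifts every gene to the right and turns 7 of the 13 falls above 0, adding the marker score to the model leaves no filled symbol (6 genes at an unadjusted p under 0.05), and leaving out knockouts 2 and 3 leaves 9 filled.

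In the survival arm, limma called 0 of the 31 genes, beside 0.0124% (2) of all 16136 genes tested, 0.0062% higher and 0.0062% lower. At an unadjusted p under 0.05, 4 of the 31 genes were lower (Cpt1a, Slc25a20, Acadvl and Etfb), beside 8.74% of all genes in either direction. Groups did not overlap for 3 of them (Cpt1a, Acadvl and Etfb, with the knockouts lower), beside 2.01% of all genes (0.793% with the knockouts lower, 1.21% with them higher). The median log2 fold change of the 31 was -0.047, beside 0.0087 over all genes tested.

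Cpt1a had 3849, 4590, 4216, 4174 and 4565 normalized counts in the survival controls and 1612, 2470, 3599, 3728 and 1534 in the knockouts. Every knockout was below every control, but they spread widely, at 2588 ± 1049 (SD, n = 5) against 4279 ± 308 (SD, n = 5). The difference of -0.82 (SE 0.221) was not called (limma adjusted p = 0.267). Acadvl had 1885, 1996, 2107, 1943 and 2127 in the controls and 1431, 1743, 1830, 1883 and 1602 in the knockouts, with knockout 4 just below the lowest control. Its difference was -0.25 (SE 0.0758, limma adjusted p = 0.318). Slc25a20 had 830, 946, 986, 802 and 905 in the controls and 591, 697, 847, 936 and 670 in the knockouts, which overlapped. Its difference was -0.27 (SE 0.115, limma adjusted p = 0.518). In each of these 3 genes, knockouts 1, 2 and 5 held the lowest values and knockouts 3 and 4 the highest, a pattern picked out after the values were seen. The marker scores of knockouts 1 to 5 were 0.17, -0.23, 0.39, -0.20 and -0.34, and their part in this pattern was not tested.

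Etfb had 1398, 1416, 1382, 1369 and 1472 in the survival controls and 1289, 1249, 1304, 1354 and 1109 in the knockouts. Its difference was -0.16 (SE 0.0615, limma adjusted p = 0.447). The other always-reported genes overlapped between groups. Cpt2 had 405, 409, 371, 422 and 389 in controls and 348, 423, 373, 431 and 441 in knockouts, a difference of 0.01 (SE 0.0858). Acadm had 630, 701, 758, 698 and 684 in controls and 668, 707, 723, 818 and 772 in knockouts, a difference of 0.09 (SE 0.0741). Neither difference was called. Hadha had 1846, 1719, 1848, 1578 and 1835 in controls and 1562, 1689, 1624, 1792 and 1713 in knockouts (-0.07, SE 0.0619). Hadhb had 2651, 2948, 2759, 2507 and 2556 in controls and 2669, 2717, 2897, 3107 and 2480 in knockouts (0.05, SE 0.0683). The groups overlapped for both subunits, with Hadha knockout 1 below every control, and Hadhb knockout 4 above and knockout 5 below every control. Etfdh had 1514, 1539, 1514, 1332 and 1325 in controls and 1268, 1404, 1464, 1519 and 1256 in knockouts (-0.06, SE 0.0731). Abcd3 had 680, 561, 656, 499 and 517 in controls and 522, 565, 602, 499 and 618 in knockouts (-0.05, SE 0.101).

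**Figure D4:**
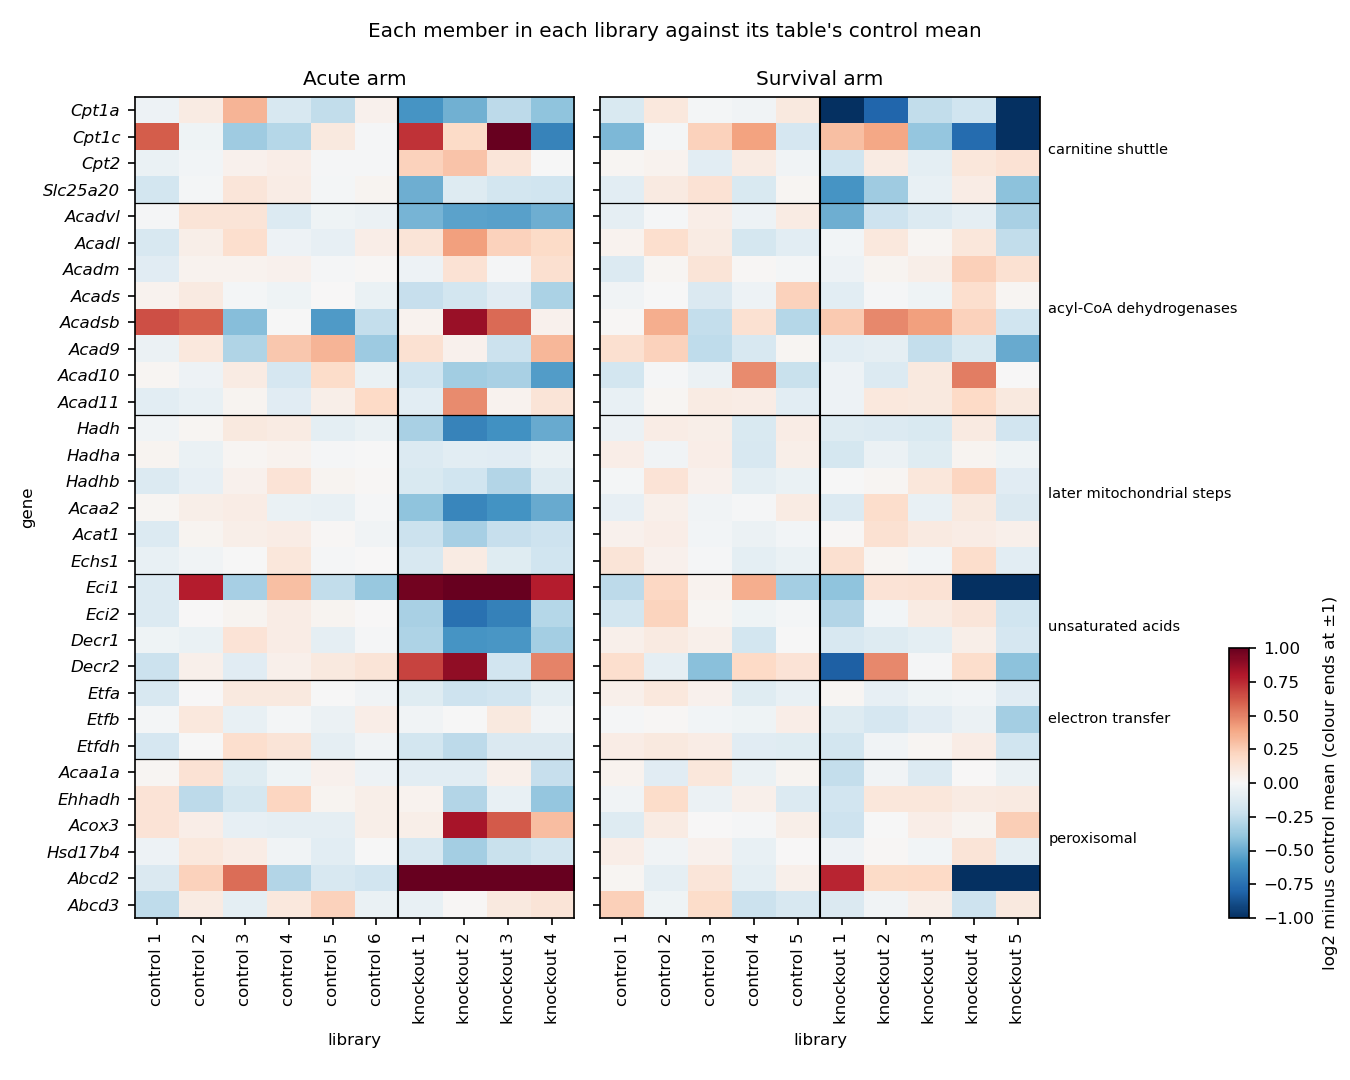
Each of the 31 tested genes (rows, by role) in each library (columns), as log2(normalized count + 1) minus the control mean of the same table, with colours ending at ±1. As deposited, Abcd2 and Eci1 are red and Acadvl, Hadh, Acaa2, Eci2 and Decr1 blue in the 4 acute knockouts, whereas in the survival knockouts Cpt1a is darkest in libraries 1, 2 and 5.

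The difference between the arms, the survival fold change less the acute one, was tested over all 20 libraries. limma called 8 of the 31 genes, beside 20.2% of all 15673 genes tested in both arms. The survival fold change was above the acute one for 6 of them (9.39% of all genes) and below it for 2 (10.9%). Scaled to Trbc1 and Trbc2, 18 of the 31 genes were called, beside 6992 of all 15673 genes. Each of the 18 had the survival value below the acute one. The 6 were the later enzymes and helpers Acaa2 at 0.52 (SE 0.0893, limma adjusted p = 0.000306), Eci2 at 0.44, Hadh at 0.42, Decr1 at 0.36, Acat1 at 0.32 and Hsd17b4 at 0.22. The acute falls of these genes had survival fold changes of -0.02 for Acaa2, -0.06 for Eci2, -0.11 for Hadh, -0.10 for Decr1, 0.08 for Acat1 and -0.01 for Hsd17b4, none called. Eci2 lost its call without acute knockout 2 or 3 (limma adjusted p 0.0645 to 0.0709). Hsd17b4 lost it without any of 12 libraries (acute controls 2, 3, 4 and 6, acute knockouts 2 and 3, survival controls 2, 4 and 5, survival knockouts 2, 3 and 4), with limma adjusted p from 0.0533 to 0.119.

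The opposite difference was largest for Abcd2, at -3.48 (SE 0.482, limma adjusted p = 4.85e-05). Its normalized counts in the survival arm were 39, 36, 41, 36 and 40 in controls and 66, 44, 44, 16 and 14 in knockouts. At the endpoint, knockouts thus lay on both sides of the controls. Eci1 differed by -2.0 (SE 0.484, limma adjusted p = 0.00609), with 46, 63, 56, 71 and 43 in survival controls and 41, 60, 61, 22 and 15 in survival knockouts. Knockouts 4 and 5 were lowest for both genes. For Cpt1a, Slc25a20 and Acadvl a difference between arms was not called as deposited (limma adjusted p 0.336, 0.937 and 0.0642). Their acute fold changes were -0.43, -0.25 and -0.51 and their survival fold changes -0.82, -0.27 and -0.25. Scaled to Trbc1 and Trbc2, Cpt1a and Slc25a20 differed between arms at an unadjusted p under 0.05, beside 53.1% of all genes. Without acute knockouts 2 and 3, 3 of the 31 genes differed between arms (2 with the survival value above, 1 below). Beside them, 1251 of all 15947 genes tested in that fit were called.

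Compared per kilobase of the longest coding transcript (GENCODE M21, GRCm38), Acaa2 at 2148 ± 91 and Etfa at 2063 ± 136 normalized counts per kilobase (SD, n = 6) stood highest in the acute controls, within each other's spread. Etfb at 1532 ± 76.5 and Hadhb at 1258 ± 85.1 followed. The lowest were Acaa1b at 1.08 ± 0.656, Cpt1c at 4.03 ± 1.14 and Abcd2 at 7.39 ± 1.88. The transcript the cells use may differ in length from the one taken here. The acute rise of Abcd2 thus started from one of the lowest levels of the pathway.

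Genes around the pathway were read from lists by role, beside 31.4% of all genes called in the acute arm (16.7% higher, 14.7% lower). Among fatty acid uptake and activation genes, 3 of 14 tested rose and 2 fell in the acute arm, near that share. They included the long-chain acyl-CoA synthetase Acsl1, which rose by 1.67 (SE 0.214), the fatty acid transport protein Slc27a4, which rose by 1.23 (SE 0.183), and the fatty acid binding protein Fabp5, which fell by 0.63 (SE 0.0866). Among genes of fatty acid release from stores, 4 of 8 rose and 0 fell: G0s2, an inhibitor of adipose triglyceride lipase, by 3.17 (SE 0.394), its activator Abhd5 by 2.62 (SE 0.282) and the hormone-sensitive lipase Lipe by 0.82 (SE 0.135), beside 1 more. Of other oxidation enzymes and carriers, 3 of 21 rose and 3 fell, no more than the 31.4% of all genes. Phytanoyl-CoA hydroxylase Phyh rose by 0.74 (SE 0.177) and carnitine acetyltransferase Crat by 0.62 (SE 0.132), while the racemase Amacr fell by 0.72 (SE 0.172). With the marker score in the model, Phyh stood at -0.090 and Crat at -0.017. In that model 0 of the genes on these lists were called, as was so for all genes.

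Genes that use the products were lower where they were called. In propionyl-CoA and ketone body use, 4 of 9 fell and 0 rose as deposited, and Pcca and Acat2 turned above 0 in the Trbc scaling. Pcca, a propionyl-CoA carboxylase subunit, fell by 0.22 (0.055 with the marker score in the model), and the cytosolic thiolase Acat2 by 0.18. The Pcca call ended without any of 8 libraries (acute controls 2 to 6, knockouts 2 to 4) and the Acat2 call without any of 6 (controls 3, 4 and 6, knockouts 1 to 3), with limma adjusted p up to 0.119 and 0.0967.

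In the tricarboxylic acid cycle, which burns acetyl-CoA, 9 of 18 genes fell and 0 rose in the acute arm as deposited. Suclg2, a subunit of succinyl-CoA ligase, fell by 0.28 (SE 0.0526), the largest fall on this list. The isocitrate dehydrogenase genes Idh3b and Idh2 fell by 0.23 (SE 0.0421) and 0.21 (SE 0.0521). Scaling to Trbc1 and Trbc2 adds 0.38, so all 18 genes, the 9 falls included, stood above 0 under it. Suclg2, Idh3b and Idh2 were then at 0.09, 0.14 and 0.17. In peroxisome assembly, 6 of 17 fell and 0 rose as deposited. Pex11g, which acts in peroxisome division, fell by 0.81 (SE 0.191). Among regulators of oxidation, 4 of 20 rose and 1 fell, no more than the 31.4% of all genes. The nuclear receptor Rxra rose by 0.87 (SE 0.199), the deacylase Sirt5 fell by 0.46 (SE 0.0813), and the kinase subunit Prkaa1 rose by 0.24 (SE 0.0853). With the marker score in the model, Rxra stood at -0.030 and Prkaa1 at -0.18. The Prkaa1 call ended without any of 9 libraries (acute controls 1 to 6, knockouts 2 to 4), with limma adjusted p up to 0.144. In the survival arm limma called 0 of the 107 genes tested on these 7 lists, and 15 had an unadjusted p under 0.05, beside 8.74% of all genes.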

How the data were processed

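Polyadenylated RNA from 20 spleen suspensions was sequenced with strand-specific libraries. Per the submitters' processing notes, kallisto 0.46.0, DESeq and the mouse build GRCm39 were used, and the authors deposited a signal of normalized counts per gene and library in 2 tables, each scaled on its own. The annotation used and filters, if any, are not stated in the sources used here. Values were not whole: 70.3 to 87.3% of low values lay at a whole multiple of the library's step (tolerance 0.1 steps), so whole reads were not recovered and no test on reads was run. The reads behind each value are unknown, and no counting interval is given.

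log2(normalized count + 1) was fitted by group with limma 3.58.1 in R 4.3.3 (eBayes with a mean-variance trend, two-sided), on genes reaching 10 in at least 4 (acute) or 5 (survival) libraries. For Acly, exact permutation of the group labels (two-sided) gave p = 0.00476 in the acute arm (210 arrangements) and 0.00794 in the survival arm (252), the smallest each design allows. The fit was also run on simulated data with known changes. No shift in cell mixture was simulated, so that run says nothing about such a shift. No 2 libraries held identical values, and libraries of a group correlated at 0.967 to 0.985. Replicate numbers were not taken to pair libraries.

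The members, lists and tests were chosen with earlier results of these data known. Values by library were given for Cpt1a, Cpt2, Acadvl, Acadm, Hadha, Hadhb, Etfdh, Abcd3 and the 12 called members with the largest change per comparison. Of each pathway list, up to 3 called genes with a mean of at least 50 and the largest change were named. A few genes that this rule names are not reported here. Alternatives were another pseudocount (0.5, 8), no filter or 50, quantile normalization, scaling to Trbc1 and Trbc2, the marker score as a covariate, no trend, a replicate block, leaving out acute knockouts 2 and 3 and leaving out each library. Figures used Python 3.11.15, numpy 2.4.6, pandas 2.3.3 and matplotlib 3.10.9.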

Additional observations from a re-analysis of the deposited data

Results flagged for a closer look

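Across the 31 tested genes and 4 groups, 124 sets of libraries were checked for a single library standing far from the rest, and 5 (4.03%) held one, where chance gives about 1 in 20 (5%). Acad10 was high in survival control 4, at 236.2 against 169.3 in the next library. Acadm was low in acute control 1, at 640.6 against 688. Eci2 was low in the same library, at 1593 against 1751. Ehhadh was low in survival knockout 1, at 141.6 against 172.1. Hadh was high in survival knockout 4, at 1902 against 1630.

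The fold changes of 8 genes differed between the arms by limma's test of the difference (survival less acute, log2). The values were 0.42 for Hadh, 0.52 for Acaa2, 0.32 for Acat1, 0.44 for Eci2, 0.36 for Decr1 and 0.22 for Hsd17b4. They were -2.0 for Eci1 and -3.48 for Abcd2.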

How the results depend on the processing

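The count of acute calls among the 31 genes (17) was 10 with a replicate block, 9 without acute knockouts 2 and 3, and 0 once the marker score was a covariate. Between the arms, the count (8) was 18 scaled to Trbc1 and Trbc2, 3 without acute knockouts 2 and 3, and 0 with the marker score. At an unadjusted p under 0.05, limma with the marker score gave 6 acute genes (7.65% of all genes) and 2 between the arms (7.84%). Leaving out 1 library gave 12 to 18 acute calls and 6 to 10 between the arms, and the survival count was 0 in every fit run. Over all genes, the acute count (5140) was 3294 with the block, 2079 without acute knockouts 2 and 3 and 0 with the marker score. The count of all genes between the arms (3173) was 6992 scaled to Trbc1 and Trbc2, 1251 without acute knockouts 2 and 3 and 1 with the marker score. The acute higher and lower counts of all genes (2731 and 2409) were 7414 and 90 scaled to Trbc1 and Trbc2 and 2318 and 4145 under quantile normalization, which moved the median fold change by 0.38 and -0.16. The same numbers did not mark paired libraries: same-numbered libraries correlated at -0.066 to 0.14 in the acute arm and -0.020 to 0.13 in the survival arm, and 1 of 4 and 0 of 5 knockouts correlated best with their own number.

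The acute median (-0.11) was -0.18 under quantile normalization, 0.27 scaled to Trbc1 and Trbc2 and -0.17 with the marker score. The survival median (-0.047) was -0.13 scaled to Trbc1 and Trbc2 and -0.072 to -0.0044 without 1 library, the latter without knockout 1. Signs turned as follows, and the cause was not tested beyond the constant added by the Trbc scaling.

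Scaled to Trbc1 and Trbc2, acute values were 0.13 for Slc25a20, 0.17 for Acads, 0.019 for Acad10, 0.27 for Hadha, 0.18 for Hadhb, 0.13 for Acat1, 0.28 for Echs1, 0.22 for Etfa, 0.19 for Etfdh, 0.28 for Acaa1a, 0.20 for Ehhadh and 0.15 for Hsd17b4. Among pathway genes they were 0.15 for Pcca, 0.20 for Acat2, 0.095 for Suclg2, 0.14 for Idh3b and 0.17 for Idh2. With the marker score they were -0.14 for Acadl, -0.10 for Acadm, -0.62 for Acadsb, -0.34 for Acad11, -0.27 for Eci1, -0.17 for Etfb, 0.22 for Ehhadh, -0.32 for Acox3 and -0.12 for Abcd3, and -0.090 for Phyh, -0.017 for Crat, 0.055 for Pcca, -0.030 for Rxra and -0.18 for Prkaa1. Under quantile normalization they were -0.016 for Acadm, -0.026 for Etfb and -0.050 for Abcd3, and Etfb was -0.036 without acute knockouts 2 and 3.

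In the survival arm Cpt2 was -0.019 under quantile normalization, -0.074 scaled to Trbc1 and Trbc2 and -0.016 with the marker score, and the Trbc scaling gave -0.037 for Hadhb and -0.0075 for Acat1. Between the arms, it gave -0.014 for Eci2, -0.038 for Hadh, -0.10 for Decr1, -0.14 for Acat1 and -0.24 for Hsd17b4, and the marker score gave 0.088 for Eci1. Without 1 library the acute value ran from -0.0062 to 0.17 for Acad9, -0.026 to 0.025 for Etfb and -0.010 to 0.086 for Abcd3. The survival value ran from -0.025 to 0.061 for Cpt2, -0.065 to 0.015 for Acaa2, -0.043 to 0.014 for Hsd17b4 and -0.10 to 0.012 for Abcd3.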
